A study of Rattus norvegicus with 59 samples.

Results

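Interferons are cytokines that make cells resistant to infection, and inflammasomes are protein assemblies that switch on interleukin-1 and interleukin-18. Interferon gamma acts through a receptor of which IFNGR1 is the ligand-binding chain, type I interferons are induced through the transcription factor IRF3, and cells that receive either signal make effector proteins such as the membrane protein IFITM3. In inflammasomes the adaptor ASC, the product of Pycard, links sensor proteins to caspase-1, which releases active interleukin-18, and IL18BP is a secreted protein that binds interleukin-18 and blocks it. Inhaled crystalline silica is taken up by lung macrophages, in which it is a known trigger of inflammasome assembly.

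The genes described here are Ifngr1, Irf3, Ifitm3, Pycard and Il18bp, 5 of 2887 complete gene entries in a table of lung expression, chosen by name. All 5 were among the 1278 entries tested, those with a value of 1 or more in at least 4 libraries, in FPKM (fragments mapped to a gene, scaled to its transcript length and to the library's total). Each of the 59 libraries was made from lung tissue of 1 male Fischer rat (F344/DuCrl, bought at an age of 3 months). Rats breathed air, or crystalline silica at 15 mg/m3 for 6 hours a day on 5 days, in whole-body chambers, and lungs were taken afterwards at 6 times, called months 1, 3, 6, 9, 12 and 18 here. Each of the 12 groups held 5 rats, except air at month 9, which held 4. Later groups are therefore also older rats, and each time had its own air controls.

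The table covers part of the genome. Of 2061 entries whose name matched a RefSeq gene, 2046 lay on chromosome 1, and the interferons, most interferon regulatory factors, caspase-1, Nlrp3, Il1b and Il18 were not analysed here. In the libraries of replicate 3 of air at month 9 and replicate 5 of silica at month 3, the entry LOC102553223 had 25818 and 17114 FPKM, against 2618 in the next highest, and no 2 libraries were identical. In 261 entries above 0 in few libraries, a library's values above 0 were set against each entry's lower quartile. The inverse of their median ratio gave its relative depth, an indirect estimate that spanned 5.19-fold. By an exact permutation test, two-sided, depth in silica and air differed with p = 0.127 to 0.73 over the times. The lung label was checked against the alveolar type 2 and club cell list, of which Napsa and Lpcat1 were in the table and summed to between 121 and 297 FPKM in every library. Lungs are mixtures of cells, and in these bulk libraries more cells of a type and more RNA per cell cannot be told apart.

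Over the 6 times together, Il18bp rose 1.28-fold, Ifngr1 1.16-fold and Ifitm3 1.08-fold in silica lungs, while Irf3 and Pycard did not pass the test. These 3 of 5 calls stand against 57.6% of all tested genes called in the same mean over times, 37.5% higher and 20.1% lower, so the share of called genes was near the background. The calls over all genes divided into 479 higher and 257 lower as the values were deposited, into 338 and 429 after each library was centred on its median, and into 312 and 448 after quantile normalization. Of 30 comparisons of 1 gene at 1 time, 6 passed the test as deposited, all with silica higher. At single times 8.84% (month 1) to 30.8% (month 9) of all tested genes were called. Of those calls 61.6% (month 12) to 95.6% (month 1) were higher, so neither the count nor its direction sets these genes apart. Under both rescalings Irf3 at month 12 was called lower in silica. The mean rise of Il18bp passed the test under both rescalings, that of Ifngr1 was lost under quantile normalization, and that of Ifitm3 was lost under both. Irf3 was called lower in silica under both, at log2 -0.08 after median centring and -0.13 after quantile normalization (limma adjusted p = 0.000572 and 1.14e-06). Pycard was called under neither.

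**Figure D1:**
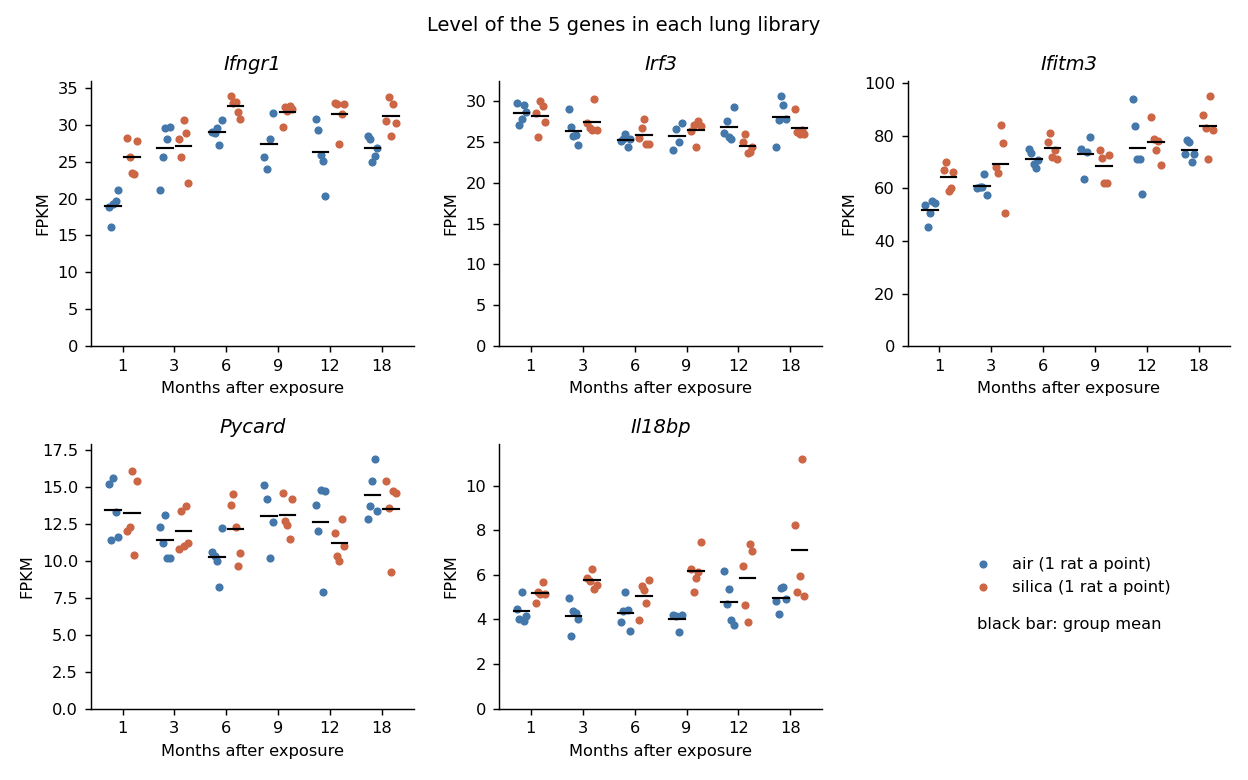
FPKM of Ifngr1, Irf3, Ifitm3, Pycard and Il18bp (vertical axes, linear from 0) against months after exposure, with 1 point per rat, air in blue and silica in orange, and a black bar at each group mean. Ifngr1 and Ifitm3 are lowest in air at month 1 (means of 19.0 and 52.0 FPKM), Il18bp has its highest means in silica, and Irf3 stays between 23.6 and 30.6 FPKM in all libraries.

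The sequences just before the start of Ifitm3 and of Ifitm2 are shown because both are textbook interferon-induced genes of 1 family, and because their levels moved differently here. They are the 120 bases before the annotated start from RefSeq promoters of assembly GRCr8, on the minus strand, at chr1:205541759-205541878 for Ifitm3 and chr1:205482349-205482468 for Ifitm2. Capitals mark the match to GAAANNGAAA, searched on both strands, the core of the interferon-stimulated response element that IRF proteins bind.
Ifitm3: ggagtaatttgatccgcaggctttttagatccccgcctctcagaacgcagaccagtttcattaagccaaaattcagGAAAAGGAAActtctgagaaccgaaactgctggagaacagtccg
Ifitm2: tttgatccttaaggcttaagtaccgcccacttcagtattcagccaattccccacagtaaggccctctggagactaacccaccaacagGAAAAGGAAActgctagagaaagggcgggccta
The match begins 44 bases before the start in Ifitm3 and 33 bases before it in Ifitm2, with the same 10 letters, GAAAAGGAAA, in both. Of the 5 genes, all of which matched the promoter table by symbol, 1 held GAAANNGAAA within 250 bases before its start, as did 3 of 9 other tested genes of the lists described below (Ifitm2, Isg20 and Trim21). The share over all 33469 promoters was 3.41%. For Ifngr1, Il18bp, Isg20, Trim21, Nlrp12 and Sigirr the window lies before a start inside the annotated span of the gene, not at its outer edge. A match or its lack there does not describe the outermost start of these genes. A match is a run of letters in this window and not a measured binding site.

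Ifngr1 rose at month 1 and month 12. In air at month 1 the 5 rats had 18.9, 16.2, 19.2, 19.7 and 21.1 FPKM, and in silica at month 1 they had 28.2, 25.6, 23.4, 23.3 and 27.8 FPKM. The ranges did not overlap, with silica higher at a log2 difference of 0.42 ± 0.086 (SE; limma adjusted p = 0.00112) or 1.34-fold. The air libraries of month 1 were low: the air means of the other 5 times lay between 26.3 and 29.1 FPKM, and the silica mean of month 1 was 25.7 ± 2.33 FPKM (SD, n = 5).

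At month 12, Ifngr1 was at 30.8, 29.3, 25.9, 25.1 and 20.3 FPKM in air and at 33.0, 32.8, 27.4, 31.4 and 32.8 FPKM in silica. The groups overlapped through silica replicate 3, and the log2 difference was 0.27 ± 0.086 (adjusted p = 0.0192). Without replicate 5 of air, the lowest library, it was 0.18 with an adjusted p of 0.122, and without replicate 1 of silica it was 0.25 with an adjusted p of 0.0556. The call was also lost after quantile normalization (0.11, adjusted p = 0.344) and in a fit of the 2 groups alone (0.27, adjusted p = 0.174). At months 6 and 18 the groups did not overlap, with 27.3 to 30.7 FPKM in air against 30.8 to 33.9 in silica at month 6 and 25.0 to 28.5 against 28.5 to 33.8 at month 18, where the nearest values were equal as rounded. The fit across all genes did not call either (log2 0.16 and 0.21, limma unadjusted p = 0.0715 and 0.0174, adjusted p = 0.17 and 0.0889). The exact two-sided permutation test of that gene alone gave an unadjusted p = 0.00794 at both times. That is the smallest that 5 against 5 rats allow, and it follows from the lack of overlap. Of all tested genes, 25.2% at month 6 and 11.1% at month 18 did not overlap.

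At month 9 Ifngr1 was at 25.7, 24.0, 28.1 and 31.6 FPKM in air and at 29.7, 32.4, 31.9, 32.5 and 32.2 FPKM in silica, with an overlap through 1 air rat and a log2 difference of 0.22 (adjusted p = 0.0636, and 0.0211 at 0.29 without that rat, replicate 4). Month 3 showed no difference that could be told from the spread, at 21.1 to 29.7 FPKM in air and 22.1 to 30.7 in silica (log2 0.01, 95% confidence interval -0.16 to 0.19). Over the 6 times the mean log2 difference was 0.22 ± 0.036 (adjusted p = 9.65e-07, interval 0.14 to 0.29). It was 0.17 without month 1 (adjusted p = 0.000152), 0.15 after median centring (adjusted p = 8.53e-05) and 0.05 after quantile normalization (adjusted p = 0.2).

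The level of Ifngr1 was lowest in air at month 1, then 25.7 FPKM in silica at month 1, and highest in silica at month 6 with 32.5 ± 1.2 FPKM. The 4 highest of the 12 group means were silica at months 18, 12, 9 and 6. In that order only the step from air at month 1 to the next group was larger than the larger SD of the 2 neighbours, and the other 10 steps were smaller.

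Irf3 did not pass the test at any time. Its mean ranged from 24.5 ± 0.965 FPKM (SD, n = 5) in silica at month 12 to 28.6 ± 1.14 in air at month 1, the highest library of all 59 was 1.3 times the lowest, and no step between neighbouring group means exceeded the larger SD. Month 12 was the time nearest to a call, at 26.1, 27.5, 25.6, 25.4 and 29.2 FPKM in air and 25.0, 25.9, 23.6, 23.7 and 24.4 FPKM in silica. The groups overlapped through silica replicate 2, and the log2 difference was -0.13 ± 0.052 (adjusted p = 0.0673, exact two-sided permutation p = 0.0238). Without replicate 2 of silica, the highest of its group, it was -0.15 with an adjusted p of 0.0474.

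The mean difference of Irf3 over the 6 times was log2 -0.01 with an interval of -0.06 to 0.03 as deposited. It was -0.08 after median centring (adjusted p = 0.000572) and -0.13 after quantile normalization (adjusted p = 1.14e-06), so Irf3 counted as lower in silica when libraries were made equal in their centre or distribution. At month 12 the same scalings gave -0.16 (adjusted p = 0.0071) and -0.24 (adjusted p = 0.000394). In the RefSeq table Irf3 overlaps Bcl2l12, and since no source says whether counting used strand, reads from the shared part may have been given to either gene. Values of the 2 genes did not follow each other over the 59 libraries (Pearson r = 0.02).

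Ifitm3, whose product sits in membranes and blocks the entry of enveloped viruses, had the highest level of the 5 genes, with a median of 71.3 FPKM over all libraries. It passed the test at month 1 alone, at 53.6, 45.5, 50.8, 55.3 and 54.6 FPKM in air and 66.9, 70.2, 59.2, 60.2 and 66.2 FPKM in silica. The groups did not overlap, and the log2 difference was 0.31 ± 0.094 (adjusted p = 0.0279) or 1.24-fold. The call at month 1 was close to the threshold: it was lost without replicate 2 (adjusted p = 0.12) or 3 (0.0547) of air, or replicate 1 (0.0559), 2 (0.0697) or 5 (0.0687) of silica, at log2 values of 0.26 to 0.30. It was also lost after median centring (0.22, adjusted p = 0.121) and quantile normalization (0.22, adjusted p = 0.206).

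From month 3 on, silica and air ranges of Ifitm3 overlapped at every time. At month 3 air was at 60.2, 60.7, 60.4, 65.4 and 57.5 FPKM and silica at 68.1, 65.8, 84.3, 77.2 and 50.6 FPKM. Only silica replicate 5, one of the 2 libraries with the very high LOC102553223 entry, lay among the air values or below, and without it the log2 difference went from 0.16 (adjusted p = 0.232) to 0.27 (adjusted p = 0.027). At month 9 the difference was -0.09 with an interval of -0.29 to 0.11, and at months 6, 12 and 18 it was 0.08, 0.05 and 0.16, none called.

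Over the 6 times Ifitm3 was 0.11 ± 0.039 higher in silica on the log2 scale (adjusted p = 0.0106). The value was 0.07 without month 1 (adjusted p = 0.132), 0.05 after median centring (adjusted p = 0.207) and -0.03 after quantile normalization (adjusted p = 0.612). Group means ran from 52.0 ± 4.01 FPKM in air at month 1 and 60.9 ± 2.87 in air at month 3 to 83.9 ± 8.84 in silica at month 18. The step between the lowest 2 groups exceeded the larger SD, and the other 10 steps did not.

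Pycard did not pass the test at any time, and its ranges overlapped at every time. Its lowest group mean was 10.3 ± 1.42 FPKM (SD, n = 5) in air at month 6 and its highest 14.4 ± 1.66 in air at month 18. Month 6 had the largest difference, with 10.6, 10.3, 10.0, 8.26 and 12.2 FPKM in air and 13.8, 14.5, 12.3, 9.66 and 10.5 FPKM in silica, a log2 value of 0.22 with an interval of -0.05 to 0.50 (adjusted p = 0.23). At month 12 the difference was -0.14 and at month 18 it was -0.11. The mean over the 6 times was 0.01 with an interval of -0.11 to 0.12. In the values as deposited, a mean rise or fall of Pycard of more than log2 0.12 therefore lay outside the interval. Its sign turned to -0.06 ± 0.053 (SE) after median centring and -0.09 ± 0.053 after quantile normalization, neither called (adjusted p = 0.369 and 0.143). The bound of 0.12 does not carry over to these scalings.

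Il18bp rose at months 3, 9 and 18, in a gene of low level whose median over all libraries was 5.13 FPKM. At month 9 air was at 4.2, 4.16, 3.46 and 4.19 FPKM and silica at 6.24, 5.23, 5.87, 6.12 and 7.47 FPKM. No values overlapped, and the log2 difference of 0.57 ± 0.151 (adjusted p = 0.00321), or 1.48-fold, was the largest of the 30 comparisons of these genes. At month 3 the air rats had 4.94, 3.26, 4.36, 4.27 and 4.04 FPKM and the silica rats 5.87, 5.74, 6.25, 5.38 and 5.53 FPKM. Again every silica value was above every air value (log2 0.43 ± 0.142, adjusted p = 0.0311). Leaving out air replicate 2 (adjusted p = 0.101) or 5 (0.0508), or silica replicate 1 (0.0556), 2 (0.0528) or 3 (0.0723), ended the call at month 3, at log2 values of 0.35 to 0.43. So did median centring (adjusted p = 0.0793), quantile normalization (0.113) and testing without the filter on low values (0.0529). Of the Il18bp calls at single times, only that of month 9 held under all these settings.

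At month 18 Il18bp was at 4.81, 4.24, 5.41, 5.44 and 4.93 FPKM in air and at 8.22, 5.23, 5.96, 11.2 and 5.06 FPKM in silica. The groups overlapped, and silica replicates 1 and 4 stood above the rest. The log2 difference was 0.42 ± 0.142 (adjusted p = 0.0342, exact two-sided permutation p = 0.0635), and without replicate 4 it was 0.26 with an adjusted p of 0.254. The call was also lost without silica replicate 1 (0.107) or air replicate 1 (0.0684), 2 (0.0922) or 5 (0.0611). It was lost too under median centring (0.0594), quantile normalization (0.0728), no filter on low values (0.0537) and a fit of the 2 groups alone (0.157).

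At months 1, 6 and 12 Il18bp was higher by 0.23, 0.22 and 0.25 on the log2 scale without passing the test. At month 12 the silica rats were spread from 3.88 to 7.36 FPKM, and without the lowest, replicate 3, the difference was 0.38 (adjusted p = 0.0349). Over the 6 times the mean difference was 0.35 ± 0.059 (adjusted p = 1.23e-06, interval 0.23 to 0.47). It was 0.29 after median centring (adjusted p = 2.28e-05), 0.28 after quantile normalization (adjusted p = 5.33e-05) and 0.38 without month 1 (adjusted p = 1.94e-06). All 6 air means, 4.0 to 4.97 FPKM, lay below all 6 silica means, 5.06 to 7.13 FPKM, although only 1 step between neighbouring means, from silica at month 1 to silica at month 3, exceeded the larger SD.

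**Figure D2:**
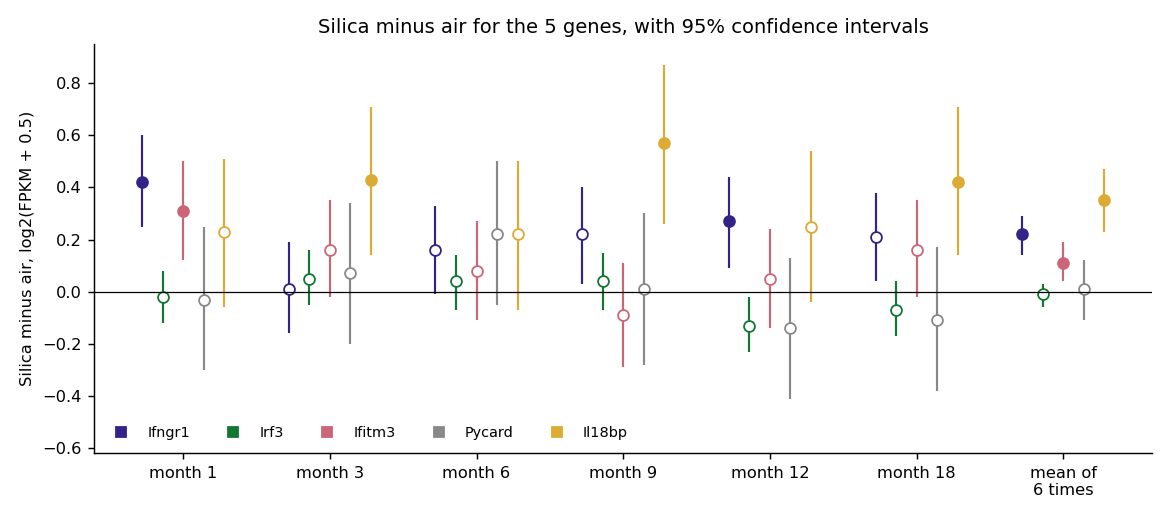
Silica minus air on the log2(FPKM + 0.5) scale (vertical axis) at each time and in the mean of the 6 times, for the 5 genes by colour, with 95% confidence intervals; filled points passed the adjusted threshold of 0.05 and open points did not. Il18bp is filled at months 3, 9 and 18, Ifngr1 at months 1 and 12, Ifitm3 at month 1, and Irf3 and Pycard are open throughout.

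Counted by time, 2 of the 5 genes were called at month 1, where 8.84% of all tested genes were. The count was 1 of 5 at month 3 (18.2% of all genes), 0 at month 6 (27.6%), 1 at month 9 (30.8%), 1 at month 12 (23.6%) and 1 at month 18 (15.3%). Silica and air did not overlap for 2 of 5 genes at month 1 (8.84% of all genes), 1 at month 3 (12.7%), 1 at month 6 (25.2%), 1 at month 9 (24.6%), 0 at month 12 (3.36%) and 1 at month 18 (11.1%). The F test of whether the silica difference varied between times called 0 of the 5 and 1.33% of all genes. Its adjusted p was lowest for Ifngr1, at 0.295 with an unadjusted p of 0.0476, and the unadjusted p of the other 4 lay between 0.108 and 0.467, so a call at 1 time and not at another is not shown to be a difference between those times.

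Ifngr1 and Ifitm3 were the 2 of 5 genes called higher in air lungs at month 18 than at month 1. Of all tested genes 21.8% were called there in either direction, and 79.6% of those calls were higher. Ifngr1 went from 19.0 ± 1.77 to 26.9 ± 1.49 FPKM (SD, n = 5 each; log2 0.49 ± 0.086, adjusted p = 3.66e-05) and Ifitm3 from 52.0 ± 4.01 to 74.5 ± 3.49 FPKM (log2 0.52 ± 0.094, adjusted p = 6.59e-05), both without overlap. Both rises held after median centring (0.41 and 0.43) and quantile normalization (0.42 and 0.39), while the calls over all genes went from 222 higher and 57 lower as deposited to 122 and 165 after median centring and 141 and 150 after quantile normalization.

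For Ifngr1 the air mean was 19.0 FPKM at month 1 and between 26.3 and 29.1 FPKM at all later times. Air at months 1 and 3 were not tested against each other. Set against air at month 3 (26.8 ± 3.59 FPKM), air at month 18 differed by log2 0.01 (adjusted p = 0.954). Ifitm3 was still 0.29 higher at month 18 than at month 3 (adjusted p = 0.0364). Il18bp, Irf3 and Pycard were not called between months 1 and 18 (log2 0.17, -0.03 and 0.10), except that Irf3 was lower by -0.14 after quantile normalization (adjusted p = 0.042). Age of the rats and the time of collection cannot be told apart in this comparison.

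The genes most like each member were named by Pearson's r of log2(FPKM + 0.5) over the 59 libraries. These values describe libraries that share exposure, time and RNA preparation, and r of the deviations from the group means is given beside them. Ifngr1 was most like Htra1, a secreted serine protease (0.90, within groups 0.76), Actn4, an actin cross-linker (0.89, within groups 0.72) and Rps16, a protein of the small ribosomal subunit (0.89, within groups 0.80). Ifitm3 was most like Scaf1 (0.74, within groups 0.40), the histone methyltransferase gene Setd1b (0.74, 0.55) and the initiation factor gene Eif3f (0.72, 0.51). Ifngr1 and Ifitm3 also followed each other, at 0.76 and at 0.68 within groups.

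Rps16 varied 16.1-fold over the libraries, from 4.96 to 79.6 FPKM, and was low where Ifngr1 and Ifitm3 were low. Its 5 lowest libraries were air replicate 5 of month 12 and 4 of the 5 air libraries of month 1, and the fifth of those, at 14.0 FPKM, was the seventh lowest. Between them came silica replicate 5 of month 3, at 11.5 FPKM. Rps16 was 8.71 ± 3.12 FPKM in air and 24.4 ± 8.96 in silica at month 1 (SD, n = 5), and 29.5 ± 16.9 and 60.2 ± 8.16 at month 12, the times at which Ifngr1 was called. Rps16 itself was called higher in silica at both times (log2 1.41 and 1.34, limma adjusted p = 0.0154 and 0.00899). It was also called higher in the mean over times (0.47, adjusted p = 0.0104) and in air at month 18 against month 1 (2.13, adjusted p = 7.16e-05).

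With log2 Rps16 as a covariate, chosen after seeing these values, the silica difference of Ifngr1 was 0.18 at month 1 (adjusted p = 0.078) and 0.04 at month 12 (adjusted p = 0.693), and neither call remained. Under the same covariate Ifngr1 was called at month 9 (0.22, adjusted p = 0.00292) and month 18 (0.20, adjusted p = 0.00693), and its mean difference was 0.13 ± 0.024 (adjusted p = 5.73e-06). Ifitm3 at month 1 was then 0.11 higher (adjusted p = 0.508). The mean difference of Ifitm3 was 0.05 (adjusted p = 0.254) and that of Il18bp 0.35 (adjusted p = 8.95e-06). The differences of Ifngr1 and Ifitm3 between months 1 and 18 in air were 0.13 (adjusted p = 0.277) and 0.21 (adjusted p = 0.182). Rps16 is among the genes most like Ifngr1 and was itself called in each comparison whose call was lost. The covariate therefore also takes out any difference that the genes share. A call lost under it does not show that silica and air, or months 1 and 18, were alike. What sets the level of Rps16 in these libraries was not tested.

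**Figure D3:**
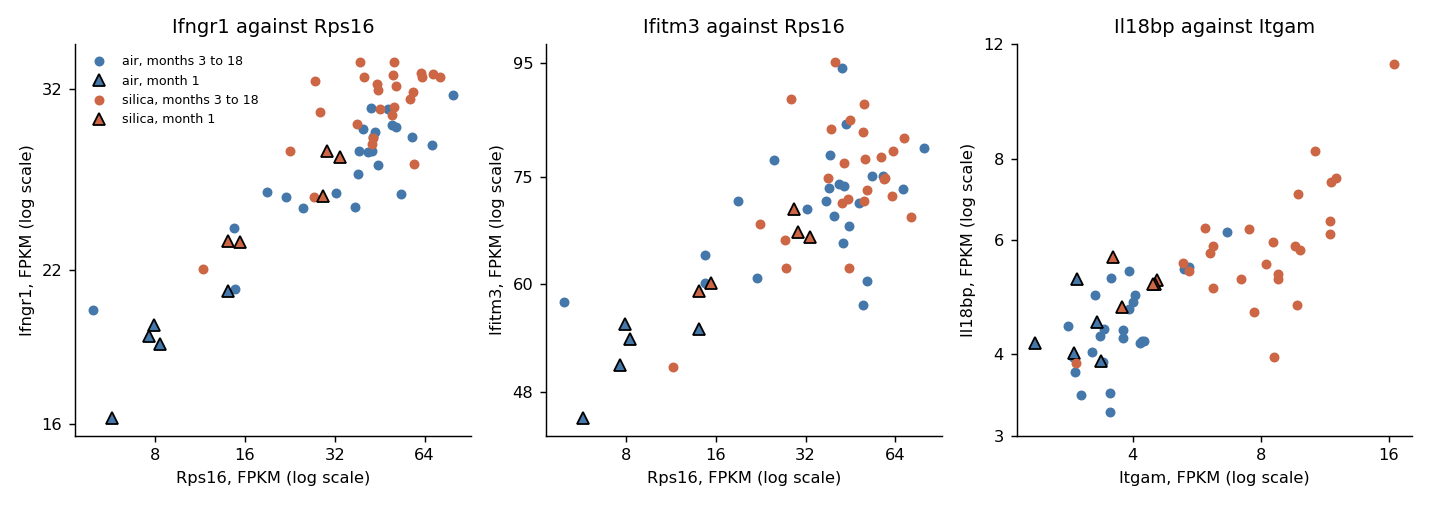
FPKM of Ifngr1 and Ifitm3 against Rps16, and of Il18bp against Itgam, both axes on a log scale, with 1 point per rat (air blue, silica orange, month 1 as triangles). The air triangles of month 1 lie at the low end of Rps16, Ifngr1 and Ifitm3, and silica points reach up to 16.5 FPKM of Itgam, where Il18bp is 11.2 FPKM.

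Il18bp was most like Itgam, the integrin alpha M chain of neutrophils and macrophages (0.77, within groups 0.73), Tmem86a (0.76, 0.58) and Pvrl2, a cell adhesion receptor (0.74, 0.51). Itgam was higher in silica by 0.93 ± 0.084 on the log2 scale over the 6 times (adjusted p = 1.39e-13), and the silica library of month 18 with the highest Il18bp also had the highest Itgam. Of the 11 genes in the macrophage and myeloid list, 8 were in the table and none was at 0 in any library. Over the 6 times 7 rose in silica and Itgad fell, where 37.5% of all tested genes were called higher and 20.1% lower. The sum of the list was 81.9 to 223 FPKM in silica (median 165) and 79.8 to 131 in air (median 99.2), and it was not itself set against Il18bp. Of 8 neutrophil genes 2 were in the table, and both rose (sums of 14.0 to 56.2 FPKM in silica and 5.24 to 18.8 in air). Some other lists moved between silica and air as well, in the values as deposited, and some did not. Of 3 B cell genes 0 were called, and of 4 T and NK cell genes Itgal rose and Nkg7 fell. Of 2 striated muscle genes Cox8b fell. Both alveolar type 2 genes rose (sums of 125 to 297 FPKM in silica and 121 to 153 in air), both endothelial genes fell (54.9 to 86.9 and 75.9 to 91.1), and 2 of 3 erythrocyte genes fell (806 to 2120 and 1140 to 3040). The part of any of these cells in the differences of Il18bp and the other genes was not tested.

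Irf3 was most like Ifitm2 (0.66, within groups 0.50), Cd2bp2 (0.60, 0.49) and Eif3k (0.60, 0.47). Pycard was most like Ifitm2 too (0.57, 0.49), then Coro1a, an actin-binding protein of leukocytes (0.55, 0.60), and Sept1 (0.55, 0.51). Irf3 and Pycard had r = 0.47 with each other and 0.34 within groups. Irf3 had r = -0.46 with Ifngr1, which was -0.15 within groups.

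Of 113 genes listed for these pathways, 24 were in the table and 16 were tested. Apart from the 5 genes, 11 were tested. As deposited, 4 of these were called higher in the mean over times, 0 lower and 7 not, where 37.5% of all tested genes were called higher and 20.1% lower. The 4 include Nlrp12, which reached the filter value in 13 silica and 2 air libraries and so was tested because of silica. Nlrp12 is also among the higher genes after each rescaling given next, and these counts are descriptions. Median centring gave 3 higher and 5 lower (Ifitm2, Irf2bp1, Trim6, Trim21 and Trim34), and quantile normalization also 3 and 5 (Ifitm2, Irf2bp1, Trim5, Trim21 and Trim34), so the split rests on the scaling. The F test called 0 of the 16. The median log2 difference of the 9 tested interferon-induced genes was 0.02, beside 0.0324 over all tested genes.

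Ifitm1, a relative of Ifitm3, rose by 0.28 ± 0.048 (adjusted p = 2.33e-06), and its silica and air ranges did not overlap at months 6, 9 and 18. At month 6 it was 22.7 ± 1.76 FPKM in air and 32.1 ± 1.6 in silica (SD, n = 5). Ifitm2 did not pass the test over the 6 times (interval -0.06 to 0.06), except that it was lower by -0.06 after median centring (adjusted p = 0.0336) and by -0.13 after quantile normalization (adjusted p = 7.86e-05). The 3 genes therefore differed in pattern: Ifitm1 and Ifitm3 had r = 0.25 over the libraries and -0.12 within groups, and Ifitm3 and Ifitm2 had -0.14 and 0.22. Their sequences are close, so reads that match more than 1 of them can leave each level uncertain.

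Isg20, an interferon-induced exonuclease that degrades RNA, rose by 0.35 ± 0.053 (adjusted p = 1.45e-07) and was called at months 3, 6, 9 and 12, with 7.66 FPKM in air and 11.7 in silica at month 6. Trim30, a member of the tripartite motif family, rose by 0.13 ± 0.036 (adjusted p = 0.00129), which was 0.07 after median centring or quantile normalization (adjusted p = 0.0622 and 0.0955). Ifitm1 and Isg20 kept their call under both scalings (Ifitm1 at 0.22 and 0.13, Isg20 at 0.29 and 0.25). Trim5, Trim6, Trim21 and Trim34, relatives of Trim30, did not pass the test as deposited. After median centring and quantile normalization Trim21 was lower by -0.09 and -0.13 (adjusted p = 0.00534 and 0.000135) and Trim34 by -0.09 and -0.10 (adjusted p = 0.0285 and 0.0143). Trim6 was lower by -0.13 after median centring alone (adjusted p = 0.0138), and Trim5 by -0.07 after quantile normalization alone (adjusted p = 0.00733).

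Among inflammasome genes, Nlrp12, a nucleotide-binding receptor of myeloid cells that is mostly described as a brake on inflammation, was higher by 0.20 ± 0.056 (adjusted p = 0.00183) at a low level, with a median of 0.85 FPKM. It reached the 1 FPKM of the filter in 13 silica and 2 air libraries, so it was tested because of the group where it is high, and its call is a description. At month 18 it was 0.891 FPKM in air and 1.53 in silica, without overlap (log2 0.50, adjusted p = 0.00867). Sigirr, an inhibitory receptor of the interleukin-1 family, did not pass the test (0.03, interval -0.06 to 0.12). Nlrp4, Nlrp5, Nlrp9 and Nlrp14 were listed at 0 in every library, and Nlrp6 and Nlrp10 were too low to be tested.

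**Figure D4:**
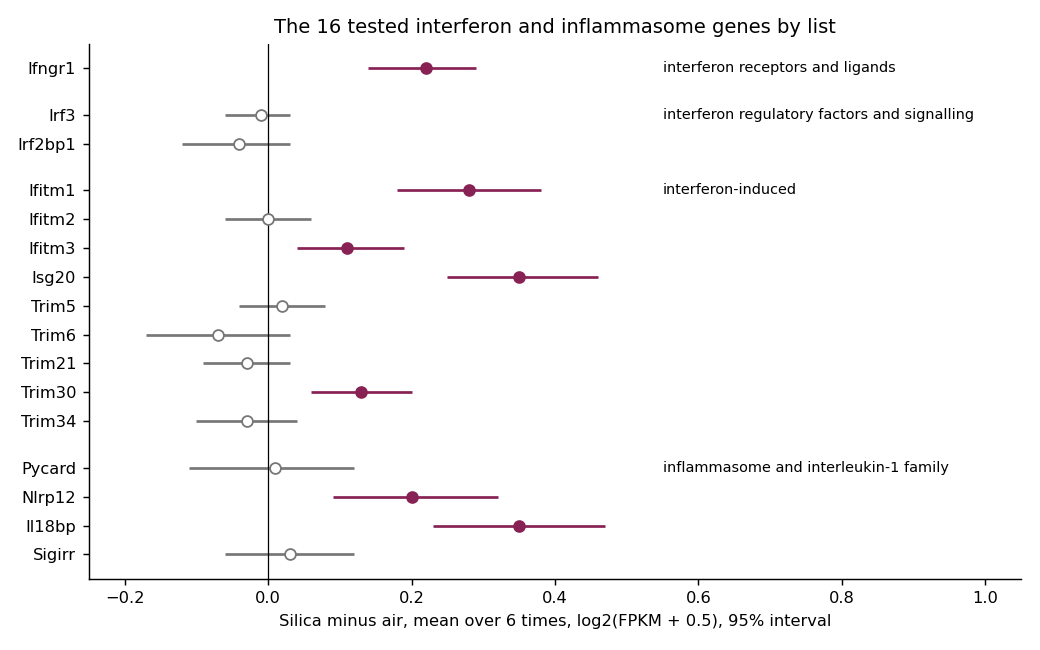
Silica minus air in the mean over the 6 times on the log2(FPKM + 0.5) scale (horizontal axis) for the 16 tested interferon and inflammasome genes, grouped by list, with 95% confidence intervals; filled points passed the adjusted threshold of 0.05. The filled points are Ifngr1, Ifitm1, Ifitm3, Isg20, Trim30, Nlrp12 and Il18bp, all to the right of 0, before any rescaling of libraries. Nlrp12 passed the filter because of its silica libraries.

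**Figure D5:**
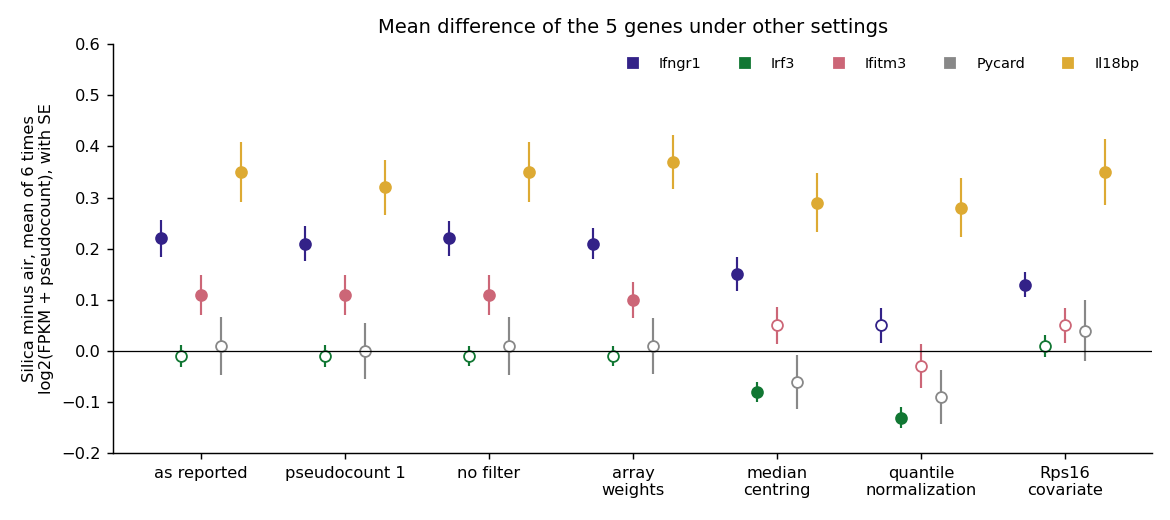
Mean silica minus air difference over the 6 times with its SE (vertical axis, log2 scale) for the 5 genes by colour, as reported and under 6 other settings; filled points passed the adjusted threshold of 0.05. Il18bp is filled throughout, Ifngr1 is open under quantile normalization, Ifitm3 is open under both scalings and the Rps16 covariate, and Irf3 is filled below 0 under both scalings.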

How the data were processed

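Total RNA from lung was sequenced from stranded libraries without ribosomal RNA, as the labels' protocols state. The submitters' processing notes name Cufflinks 2.1.1, Bowtie2 2.2.9, TopHat2 2.0.9, Trimmomatic 0.35 and bcl2fastq 2.19 without their roles. Neither genome build nor annotation is given in the sources used here. The authors deposited FPKM values, per the title of the deposited table, which has 1 column per rat. Of 2888 entries 1 was incomplete (31 of 59 values) and was left out. FPKM give no counts, so no count model was used and counting error is unknown.

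Tested were 1278 of 2887 entries, with 1 FPKM or more in 4 libraries or more. The tool was limma 3.58.1 (R 4.3.3), with an intensity trend, and the values were log2(FPKM + 0.5). All 12 groups entered 1 fit without covariates (47 residual degrees of freedom). Adjusted p-values are Benjamini-Hochberg values within a comparison, over all entries tested, and called means adjusted p under 0.05. Fold changes on this scale understate those of low genes. Exact permutation p-values are for 1 gene at 1 time and are unadjusted. They came from scipy 1.17.1 in Python 3.11.15, and matplotlib 3.10.9 drew the plots. The fit was tested on simulated data. The members, gene lists and marker lists were chosen with earlier results of these data known. Genes named beyond the 5 are tested list genes called in the mean over times or in the F test, and the 3 symbol-named genes with the highest r with each member. Other genes named singly, such as Ifitm2 and Sigirr, were chosen after their values were seen. Replicate numbers follow the order of deposit and pair nothing.

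Alternatives were pseudocounts of 0.1 and 1, no filter, median centring, quantile normalization, no trend, array weights, the 2 groups alone, and leaving out each library. The exact permutation test of each member at each time was set beside the fit as well. The Rps16 covariate, the mean without month 1, and air at month 3 as the reference for age were added after seeing the data.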

Additional observations from a re-analysis of the deposited data

Results flagged for a closer look

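In 60 sets of 1 gene in 1 group, 5 had a library farther from the other libraries than Dixon's 95% critical value allows, where chance gives about 1 in 20. Ifngr1 was lowest in replicate 1 of silica at month 9, at 29.7 FPKM against 31.9 to 32.5 in the others, and in replicate 3 of silica at month 12, at 27.4 against 31.4 to 33.0. Il18bp was lowest in replicate 3 of air at month 9, at 3.46 against 4.16 to 4.2, and that library is one of the 2 with the very high LOC102553223 entry. Irf3 was highest in replicate 4 of silica at month 3, at 30.2 against 26.4 to 27.3, and in replicate 1 of silica at month 18, at 29.0 against 26.0 to 26.4. None of the 5 genes had a silica difference that varied between times in the F test.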

How the results depend on the processing

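Of 1035 pairs of a member's difference and another setting, 918 kept direction and call. Another 39 lost a call, 20 gained one and 58 turned sign. Leaving out 1 library gave 33 of the turns and 17 of the losses. The exact permutation test is among these settings and was scored by its unadjusted p, so its entries are not calls as defined above. Its gains were Ifngr1 at months 6, 9 and 18, Il18bp at month 1 and Irf3 at month 12, and its loss was Il18bp at month 18. The table is partial, FPKM give no counts, and each group holds 4 or 5 rats. The cause of a turn was not tested, except that smaller groups follow from leaving out a library.

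Under median centring, the mean difference was 0.05 for Ifitm3, -0.08 for Irf3 and -0.06 for Pycard, month 3 turned to -0.07 for Ifngr1, -0.03 for Irf3 and -0.02 for Pycard, Irf3 to -0.02 at month 6, Pycard to -0.03 at month 9, and 65 genes were called at month 1. Under quantile normalization, the mean was 0.05 for Ifngr1, -0.03 for Ifitm3, -0.13 for Irf3 and -0.09 for Pycard. Month 3 turned to -0.14, -0.05, -0.09 and -0.03 for these genes in that order, month 6 to -0.08 for Ifngr1, -0.14 for Ifitm3 and -0.11 for Irf3, month 9 to -0.05 for Irf3 and -0.09 for Pycard, and month 12 to -0.10 for Ifitm3, and 3 of 30 member comparisons were called in place of 6.

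Array weights called 198 genes at month 1, 536 at month 6 and 153 in the F test, and turned Ifitm3 to -0.02 at month 12. The 2 groups alone called 1 gene at month 12 and 130 at month 18. With the Rps16 covariate, 52 genes were called at month 1 and 59 between months 1 and 18 in air. Ifitm3 was -0.14 at month 12 and 0.05 in the mean, Irf3 0.05 at month 1, 0.01 in the mean and 0.07 with age, and Pycard 0.06 at month 1. Without month 1 the mean of Ifitm3 was 0.07. Against air at month 3, 147 genes were called and Irf3 was 0.08.

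Leaving out 1 library at a time gave 44 to 136 called genes at month 1 (44 without air replicate 2, 66 without silica replicate 5), 194 to 457 at month 12 (194, 457 and 196 without silica replicates 1, 3 and 4) and 112 to 214 at month 18 (112 without silica replicate 4). The F test called 10 to 78: 10 without air replicate 2 or silica replicate 5 of month 1, 11 without air replicate 3 or silica replicate 1 of month 3 or silica replicate 4 of month 9, 30 without silica replicate 2 of month 9, and 78 without silica replicate 3 of month 12. The sign turned within a range of -0.07 to 0.08 for Ifngr1 at month 3, -0.04 to 0.14 for Ifitm3 at month 12, -0.04 to 0.01 and -0.06 to 0.02 for Irf3 at month 1 and with age, and -0.10 to 0.05, -0.10 to 0.08, -0.16 to 0.02 and -0.02 to 0.03 for Pycard at months 1, 9, 18 and in the mean.
No paired analysis was possible because the titles give each rat a number of its own and the replicate numbers pair nothing.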
